A study of Gallus gallus with 6 samples.

Results

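miR-126 is a microRNA (miRNA) that vertebrate endothelial cells, the cells lining blood vessels, are known to make in abundance. Both mature strands of its hairpin, miR-126-5p and miR-126-3p, were followed through the growth of chicken leg muscle. They were taken by name, as gga-miR-126-5p and gga-miR-126-3p, from the 6 deposited tables, as 2 of 846 entries, 534 of which carry a chicken miRNA name and 312 a provisional identifier. The tables come from small RNA sequencing of leg muscle of female Xinghua chickens, a breed of Gallus gallus, with 2 samples at each of 3 ages: embryos of 11 days (E11), embryos of 16 days (E16) and chicks 1 day post hatch (P1). The labels name no treatment of the birds, set the groups apart by age alone and do not say whether birds were pooled or whether each library had its own bird, so the p-values reflect the spread among these 6 libraries alone, and that spread may be technical. The values were used as read counts, although the file headers call them FPKM.

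A miRNA hairpin is cut into a duplex, and the strand kept in an Argonaute protein guides repression of messenger RNAs that match its seed. In mammals and fish miR-126 lies in an intron of EGFL7, a gene for a secreted protein of endothelial cells, and is made with it. miR-126-3p is the better known arm: in mouse and zebrafish it represses SPRED1 and PIK3R2, which restrain signalling downstream of vascular endothelial growth factor, and its loss weakens vessel walls. miR-126-5p has its own targets, among them the Notch ligand DLK1 in mouse endothelial cells. In growing muscle, capillaries spread among the fibres as these form and enlarge. The RefSeq annotation of chicken assembly GRCg7b also places MIR126 within the bounds of EGFL7, between AGPAT2 and NOTCH1.

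Total counts lay between 303556 and 2641042 per library and were lowest at E11. Each library listed 453 to 578 entries, and provisional entries took 32.1% to 42.9% of the counts. The tables hold miRNAs only, and apart from the arms themselves no other miRNA restricted to endothelium was on the marker lists, so the label "endothelial" rests on what is known of miR-126 and was not tested here. No other entry had counts that matched those of either arm within 10% or 3 counts in every library, whereas 11 other pairs of entries did.

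Both arms were abundant and were listed in every library. miR-126-5p had 3673 and 9361 counts in the E11 libraries, 46045 and 30473 in the E16 libraries and 105770 and 103357 in the P1 libraries. It ranked between 6 and 10 among the named miRNAs of a library. miR-126-3p had 1038 and 3499 counts in the E11 libraries, 12112 and 5264 in the E16 libraries and 27356 and 27875 in the P1 libraries, and ranked between 11 and 31. The 5p arm was thus the more abundant one at every age, and by mean level over the 6 libraries it ranked 7 and the 3p arm 15 among the 199 named miRNAs that passed the filter on low counts.

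As a share of all counts, miR-126-5p took 1.21% (95% Clopper-Pearson interval 1.17 to 1.25) and 1.59% (1.56 to 1.62) of the E11 libraries. It took 3.83% (3.79 to 3.86) and 3.21% (3.18 to 3.25) of the E16 libraries, and 4.0% (3.98 to 4.03) and 4.70% (4.67 to 4.72) of the P1 libraries. These intervals, like the other Clopper-Pearson intervals below, cover counting error only. Each treats the reads of 1 library as independent, although copies of 1 molecule may have been counted more than once. In each age the gap between the 2 libraries was wider than counting error. For miR-126-3p the E11 libraries had 0.342% and 0.594%, the E16 libraries 1.01% and 0.555%, and the P1 libraries 1.04% and 1.27%. In these shares, before any further scaling, the E16 and E11 libraries overlapped for the 3p arm but not for the 5p arm.

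Levels were next put on a common scale as CPM, counts scaled to a common library size, after TMM normalization, which allows for differences in composition between libraries. On this scale miR-126-5p averaged 12112 ± 1957 in the E11 libraries, 34133 ± 3771 in those of E16 and 52009 ± 9070 in those of P1 (CPM, SD, n = 2 each). The averages of miR-126-3p were 4038 ± 1423 for E11, 7558 ± 3001 for E16 and 13775 ± 2803 for P1 (CPM, SD, n = 2 each). For each arm the CPM values of the 3 ages followed the order E11, E16, P1 without overlap, an order that 13.1% of the 289 entries tested shared. For the 3p arm the separation of E16 from E11 was narrow: the lower E16 library had 5436 CPM and the higher E11 library 5045 CPM, and with scaling by library totals alone the order of these 2 libraries turned round. In bulk tissue, a change in the number of cells that hold a miRNA and a change in its amount per cell cannot be told apart.

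**Figure D1:**
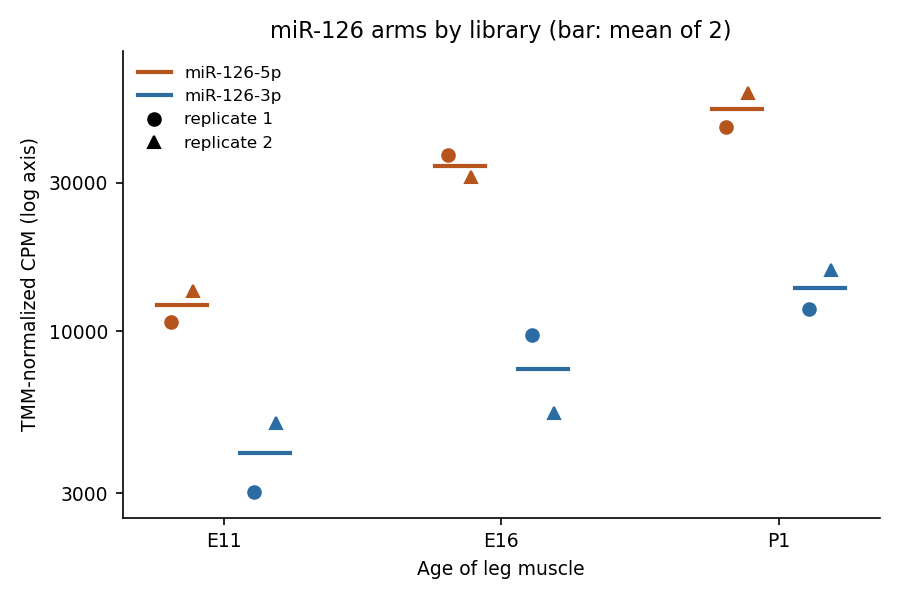
TMM-normalized CPM of miR-126-5p (orange) and miR-126-3p (blue) in each library on a log axis, with circles for replicate 1, triangles for replicate 2 and a bar at the mean of 2. The 5p arm lies between 10728 and 58423 CPM and the 3p arm between 3032 and 15756 CPM, and the spread within E16 is wider for the 3p arm.

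The comparison of E16 with E11 asked whether miR-126 differed between 2 embryonic stages. miR-126-5p had 36800 and 31467 CPM in the E16 libraries, against 10728 and 13496 CPM in the E11 libraries. All E16 values lay above all E11 values, as in 27.3% of entries. This arm rose 2.82-fold (log2 fold change 1.49, SE 0.31, 95% interval 0.76 to 2.23, edgeR Benjamini-Hochberg adjusted p = 0.0360, 2 samples per age). Over all 289 entries the same test called 6.57%, made up of 2.42% higher and 4.15% lower at E16, and 9.34% had a larger log2 fold change. The call was lost in each of the 6 fits that left out 1 library, where the log2 fold change ran from 1.43 to 1.79 and adjusted p from 0.0561 to 0.219.

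miR-126-3p had 9680 and 5436 CPM at E16, against 3032 and 5045 CPM at E11. The log2 fold change of 0.90 (SE 0.42, 95% interval -0.09 to 1.90) did not pass (edgeR adjusted p = 0.253). Leaving out E16 replicate 1 gave 0.49 and leaving out E16 replicate 2 gave 1.46, the lowest and highest values among the fits without 1 library. In log2 CPM, E16 replicate 2 lay 0.83 below replicate 1 for the 3p arm and 0.23 below it for the 5p arm. Of all entries tested, 20.1% had a wider gap between the E16 libraries than the 3p arm, and 67.5% a wider gap than the 5p arm.

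Across hatching, from E16 to P1, neither arm passed. miR-126-5p had 45596 and 58423 CPM in the P1 libraries, against 36800 and 31467 CPM in the E16 libraries, a log2 fold change of 0.61 (SE 0.31, 95% interval -0.11 to 1.33, edgeR adjusted p = 0.442). miR-126-3p had 11793 and 15756 CPM at P1, against 9680 and 5436 CPM at E16, a log2 fold change of 0.87 (SE 0.42, 95% interval -0.13 to 1.86, edgeR adjusted p = 0.430). Without E16 replicate 2 the log2 fold change was 0.38 for each arm, and fits without 1 library reached 0.70 for the 5p arm (without P1 replicate 1) and 1.27 for the 3p arm (without E16 replicate 1). In both arms every P1 value was above every E16 value, as it was for 26.3% of all entries. With scaling by library totals alone, the log2 of the lowest P1 over the highest E16 value was 0.065 (5p) and 0.040 (3p). The log2 fold changes were then 0.30 for the 5p arm and 0.56 for the 3p arm. The edgeR test called 0% of entries in this comparison, 37 entries had an unadjusted p under 0.05, neither arm among them, and DESeq2 called 1 entry.

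Over the whole span, P1 against E11, both arms rose. miR-126-5p rose 4.29-fold (log2 fold change 2.10, SE 0.32, 95% interval 1.35 to 2.85, edgeR adjusted p = 0.00646). miR-126-3p rose 3.41-fold (log2 fold change 1.77, SE 0.43, 95% interval 0.75 to 2.79, edgeR adjusted p = 0.0291). The same test called 30.4% of all entries, 14.2% higher and 16.3% lower at P1, so passing it was common in this comparison. The median log2 fold change of all entries was -0.15. Relative to that median the 5p arm had 2.25 and the 3p arm 1.92. With scaling by library totals alone the median was -0.62, and the log2 fold changes were 1.64 for the 5p arm and 1.30 for the 3p arm. Another scaling shifts all entries by about the same amount. The distance from the median, here 2.26 and 1.92, therefore could hardly change and is no separate support.

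The call of the 5p arm held in all 18 alternatives tried for this comparison, with adjusted p at most 0.0457. The call of the 3p arm was lost in 9 of 18. These included each fit without 1 library other than the one without E11 replicate 2, with log2 fold changes between 1.5 and 1.92 and adjusted p between 0.0587 and 0.102 where lost. The comparisons share samples, since the E11 libraries serve as the baseline of 2 of them and the E16 libraries enter 2 as well, so their fold changes are not separate evidence.

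The ratio of the arms does not depend on scaling, because both arms are counted in the same library. It is a ratio of reads, and no calibration to molecules was available. In the E11 libraries there were 3.54 (95% Clopper-Pearson interval 3.30 to 3.79) and 2.68 (2.57 to 2.78) reads of miR-126-5p per read of miR-126-3p. The E16 libraries had 3.8 (3.73 to 3.88) and 5.79 (5.62 to 5.96). The P1 libraries had 3.87 (3.82 to 3.92) and 3.71 (3.66 to 3.76). Put as a share, the 5p arm took between 72.8% and 85.3% of miR-126 reads.

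E11 replicate 2 was the lowest and E16 replicate 2 the highest library, and the intervals of the 2 libraries of an age were apart at every age, so the libraries of an age differed by more than counting error. The mean ratio was 3.11 ± 0.61 for E11, 4.80 ± 1.41 for E16 and 3.79 ± 0.11 for P1 (SD, n = 2 each). The 3 libraries E16 replicate 1, P1 replicate 1 and P1 replicate 2 lay within 3.71 to 3.87.

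**Figure D2:**
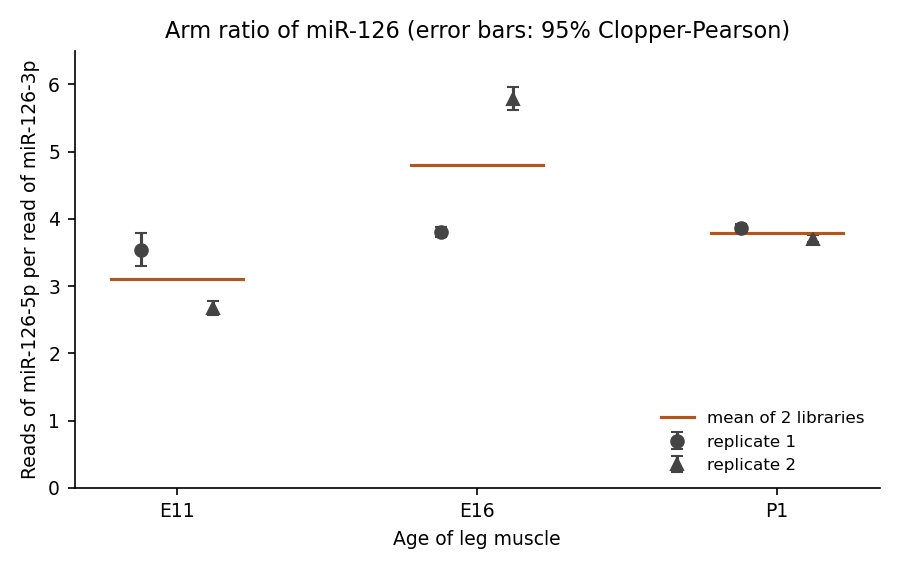
Reads of miR-126-5p per read of miR-126-3p in each library, with 95% Clopper-Pearson intervals that cover counting error only and a bar at the mean of the 2 libraries of an age. The libraries span 2.68 (E11 replicate 2) to 5.79 (E16 replicate 2), while the P1 libraries lie at 3.87 and 3.71.

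Whether the arm ratio differed between ages was tested with edgeR across all 89 miRNAs that had both arms named and enough counts, with each library as its own block. For miR-126 the log2 ratio was higher by 0.61 at E16 than at E11 (SE 0.44, 95% interval -0.25 to 1.47, adjusted p = 0.924). It changed by -0.31 at P1 against E16 (SE 0.44, interval -1.17 to 0.55, adjusted p = 0.912) and by 0.30 at P1 against E11 (SE 0.44, interval -0.56 to 1.16, adjusted p = 0.843). Without 1 library the difference ran from 0.31 (without E16 replicate 2) to 0.91 (without E16 replicate 1) for E16 against E11, from -0.61 (without E16 replicate 1) to -0.0058 (without E16 replicate 2) for P1 against E16, and from 0.098 (without E11 replicate 2) to 0.50 (without E11 replicate 1) for P1 against E11. None of the 3 differences passed, and the intervals allow the ratio at P1 to be between 0.680 and 2.23 times that at E11. In an exact two-sided permutation test of the log2 ratios, p was 0.333 for E16 against E11, 0.667 for P1 against E16 and 0.333 for P1 against E11, where 0.333 is the smallest p that 2 samples against 2 allow.

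The same edgeR test called 0% of the 89 pairs of arms at E16 against E11 and 0% at P1 against E16, with 4 and 8 pairs at an unadjusted p under 0.05, and limma on the log2 ratios also called 0 in both. At P1 against E11 edgeR called 8.99%. miR-126 was thus in the majority of pairs with no detectable shift between the arms at this depth and number of samples.

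Among the 89 pairs, 53 had more 5p and 36 more 3p reads on average, and mean log2 ratios reached beyond 10 in either direction. miR-126, at a mean log2 ratio of 1.92, ranked 47, in the middle of the order and among the pairs in which both arms are well represented in reads. The neighbours in that order were miR-1552 just above (2.16) and miR-30a just below (1.31), the latter a member of a family found in many tissues. Neither neighbour was as even between libraries: the log2 ratio of miR-126 ranged over 1.11, that of miR-1552, with 376 counts in all, over 2.36 and that of miR-30a over 2.97.

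Low counts inflate such ranges, so pairs were also compared where the scarcer arm had at least 100 counts in every library. Only 6 miRNAs met this. Within these 6 miR-126 had the smallest SD of the log2 ratio over the libraries, 0.36, followed by miR-130b with 0.40, miR-125b with 0.56 and miR-148a with 0.82, and then by miR-181a with 0.96 and miR-30a with 1.1. By range the order of the leading pair turns round, since the log2 ratio of miR-130b ranged over 1.06 and that of miR-126 over 1.11. These orders describe 6 libraries, and the threshold of 100 counts was chosen after values were seen.

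**Figure D3:**
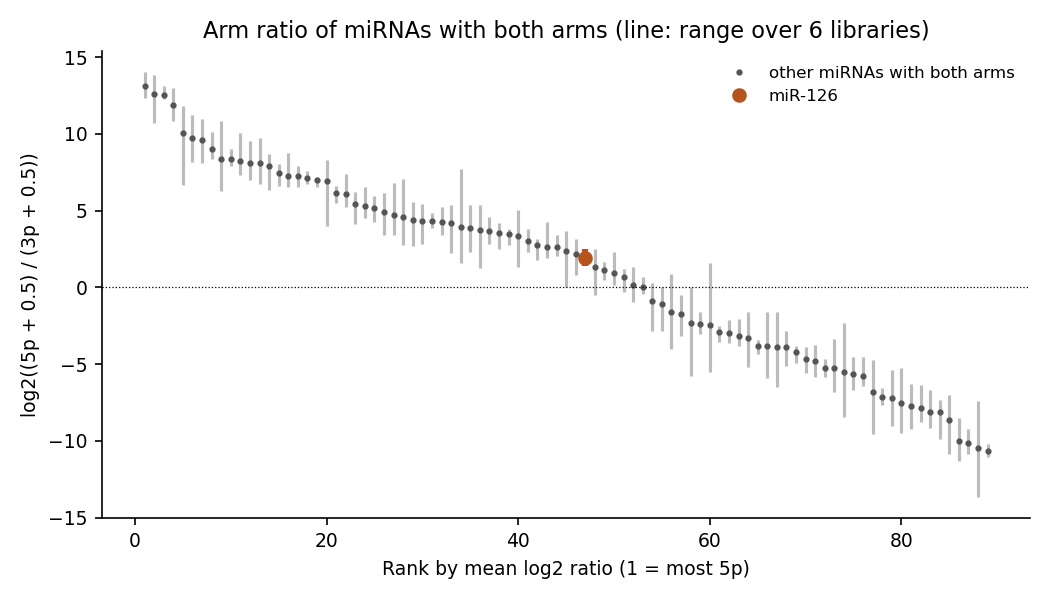
Mean log2((5p + 0.5)/(3p + 0.5)) of 89 miRNAs with both arms, ranked from the most 5p to the most 3p, with a line for the range over 6 libraries and miR-126 in orange. miR-126 ranks 47 with a mean of 1.92 and a range of 1.11.

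The miRNAs whose profiles over the 6 libraries were most like each arm were found by the root mean square difference between log2 CPM profiles, each centred on its own mean. For miR-126-5p the closest named entries were miR-193a-5p (0.14), miR-30a-5p (0.23) and miR-22-3p (0.25), the last of which is abundant in striated muscle. The median difference over the 288 other entries was 1.07. For miR-126-3p the closest were miR-190a-5p (0.24), miR-30b-5p (0.25) and miR-30c-5p (0.26), against a median of 0.98. The arms were at 0.33 from each other, which gave miR-126-3p rank 5 among 198 named entries by closeness to the 5p arm, and miR-126-5p rank 7 by closeness to the 3p arm.

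Some of these neighbours were scarce. miR-193a-5p had 5 and 10 counts in the E11 libraries and miR-190a-5p had 3 and 19, so their profiles were less precise than those of the arms. Log2 fold changes at P1 against E11 were 2.05 for miR-193a-5p, 2.06 for miR-30a-5p and 1.62 for miR-22-3p, and 1.38 for miR-190a-5p, 1.97 for miR-30b-5p and 1.27 for miR-30c-5p. Since these entries were chosen for profiles like those of the arms over the same libraries, these values restate the choice and are given with no test.

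**Figure D4:**
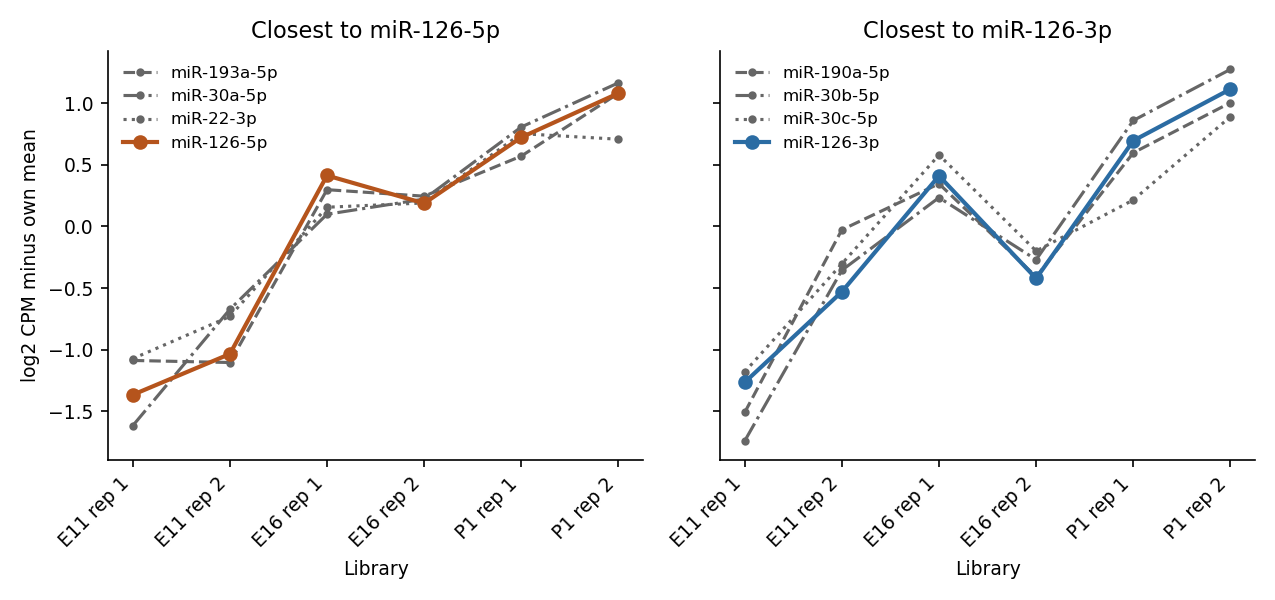
log2 CPM minus its own mean over the 6 libraries, for miR-126-5p (left, orange) and miR-126-3p (right, blue) with the 3 named miRNAs closest to each in grey. The 5p panel is tighter (0.14 to 0.25 root mean square difference) than the 3p panel (0.24 to 0.26), where E16 replicate 2 dips below E16 replicate 1 in each line.

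Other miRNAs with a described part in vessel growth moved in both directions. The entries on their list were of the miR-23, miR-24, miR-27 and miR-92 families, miR-130a, miR-218, miR-221 and miR-222, none of them restricted to endothelium. Of these 17 entries, 12 passed the filter. At E16 against E11 none of the 12 passed and the median log2 fold change was -0.54, beside -0.03 over all entries. At P1 against E16 none passed and the median was 0.20, beside 0.09. At P1 against E11, 3 of the 12 rose and 3 fell, beside 14.2% higher and 16.3% lower over all entries, and the median was -0.54, beside -0.15.

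The 3 that rose belong to clusters of miR-23, miR-27 and miR-24: miR-23b-3p (log2 fold change 1.96, SE 0.49), miR-24-3p (1.45, SE 0.44) and miR-27b-3p (1.41, SE 0.34). The 3 that fell were miR-92-5p (-2.30, SE 0.51) and miR-92-3p (-1.5, SE 0.40), from the proliferation-linked miR-17-92 cluster, and miR-222a (-1.78, SE 0.38), which in mammals restrains the stem cell factor receptor KIT in endothelium. Their edgeR adjusted p lay between 0.0207 and 0.0443, and each lost its call in 4 or more of the 6 fits without 1 library. The vessel-wall miRNAs miR-143 and miR-145 were looked for by name, but no entry carried either name. The same held for miR-132, miR-210 and miR-296, also on the vessel growth list. Of the lists below, it held for miR-208 and miR-486 (muscle) and miR-141 (epithelial).

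Markers of other cells in the tissue moved with age as well. miRNAs of skeletal muscle, from the families of miR-133, miR-499, miR-206 and miR-1, took 1.28% and 1.04% of the E11 libraries, 7.37% and 7.92% of the E16 libraries, and 12.1% and 15.4% of the P1 libraries, with 8 of 10 tested members higher and 0 lower at P1 against E11, beside 14.2% and 16.3% over all entries (3 to 6 higher without 1 library). The called muscle members included miR-1a-2-5p, with a mean of 5.51 CPM over the 6 libraries. It passed the filter on low counts only through the P1 libraries, so the direction of its call was largely fixed by the filter. The arms of miR-126 together took 1.55% and 2.18% of the E11, 4.84% and 3.77% of the E16, and 5.04% and 5.96% of the P1 libraries. Within each age, the library with the higher muscle share was E11 replicate 1, E16 replicate 2 and P1 replicate 2, and the library with the higher miR-126 share was E11 replicate 2, E16 replicate 1 and P1 replicate 2. With the muscle list removed from totals and tests, miR-126-5p had 1.53 at E16 against E11 and 2.17 at P1 against E11 (log2 fold change). For miR-126-3p these were 0.94 and 1.83. Leaving entries out alters the fold change of miR-126 through scaling alone, so these values do not bear on the part of muscle cells.

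Red blood cell miRNAs bear on a vascular marker, since vessels bring blood into the sample. The erythroid list, miR-451 and both arms of miR-144, took 0.347% and 0.395% of the E11 libraries, 0.631% and 0.285% of the E16 libraries, and 3.05% and 0.622% of the P1 libraries. At P1 against E11 the median log2 fold change of the list was 1.94, beside -0.15 over all entries. miR-144-3p (1.84, edgeR adjusted p = 0.0881) and miR-144-5p (1.94, adjusted p = 0.0769) did not pass. Of the 3 members, 1 was called higher and 0 lower, beside 14.2% higher and 16.3% lower over all entries. The member called was miR-451 (log2 fold change 2.83, SE 0.74, edgeR adjusted p = 0.0318). This call was lost in each fit without 1 library other than that without P1 replicate 2, and without P1 replicate 1 the log2 fold change was 1.29. miR-451 had 32080 and 6939 CPM at P1, against 2643 and 2829 CPM at E11. At E16 it had 5130 and 2387 CPM. Within each age, the library with more miR-451 was E11 replicate 2, E16 replicate 1 and P1 replicate 1. The library with more miR-126-5p was E11 replicate 2, E16 replicate 1 and P1 replicate 2, so the order was shared at E11 and E16 but not at P1. Without P1 replicate 1, miR-126-5p had a log2 fold change of 2.22 at P1 against E11. The part of blood in the level of miR-126 was not tested.

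Markers of white blood cells, from the families of miR-223, miR-155, miR-142 and miR-146, took 2.19% and 1.01% of the E11 libraries, 0.921% and 0.915% of the E16 libraries, and 0.834% and 0.678% of the P1 libraries. Of 8 tested members, 4 were higher and 0 lower at P1 against E11, beside 14.2% and 16.3% over all entries: miR-146b-5p (log2 fold change 3.18), miR-142-5p (2.40) and both arms of miR-146a (2.57 for 5p, 1.81 for 3p). Without 1 library 0 to 2 were higher. miR-146b-5p and miR-146a-3p were scarce, with means of 16.4 and 17.1 CPM over the 6 libraries. miR-146b-5p would not have passed the filter on low counts without the P1 libraries, so the direction of its call was largely fixed by the filter. miR-142-5p had 657 and 205 CPM at P1, against 61.3 and 101 CPM at E11. Without P1 replicate 1, the library with more miR-451, its log2 fold change was 1.28. Members not called included miR-142-3p (1.22, edgeR adjusted p = 0.255), miR-223 (0.94, adjusted p = 0.382) and miR-146c-3p (-0.19, adjusted p = 0.810). The summed share did not follow the called members, because miR-146c-5p was not called either (-0.75, edgeR adjusted p = 0.223). It averaged 10215 CPM over the 6 libraries, beside at most 232 for any other tested member. Epithelial markers, from the families of miR-205, miR-203, miR-429 and miR-200, took 1.18% and 1.21% of the E11, 0.0447% and 0.0158% of the E16, and 0.0997% and 0.00309% of the P1 libraries. Of 7 tested members, 5 were lower and 0 higher at P1 against E11, beside 16.3% lower and 14.2% higher over all entries (2 to 3 lower without 1 library). The called miR-200a-5p averaged 21.3 CPM over the 6 libraries, with log2 fold changes of -5.45 at E16 and -7.53 at P1, each against E11. It passed the filter on low counts only through the E11 libraries, so the direction of its call was largely fixed by the filter. Not called were miR-200a-3p (log2 fold change -4.62, edgeR adjusted p = 0.0682) and miR-203a (-0.06, adjusted p = 0.984), so the list did not fall as a whole. At P1 against E16 miR-203a had 2.01 (edgeR adjusted p = 0.629). Without the epithelial list, which again alters scaling alone, miR-126-5p had a log2 fold change of 1.48 at E16 against E11. The part of each cell type in the rise of miR-126 was not tested.

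**Figure D5:**
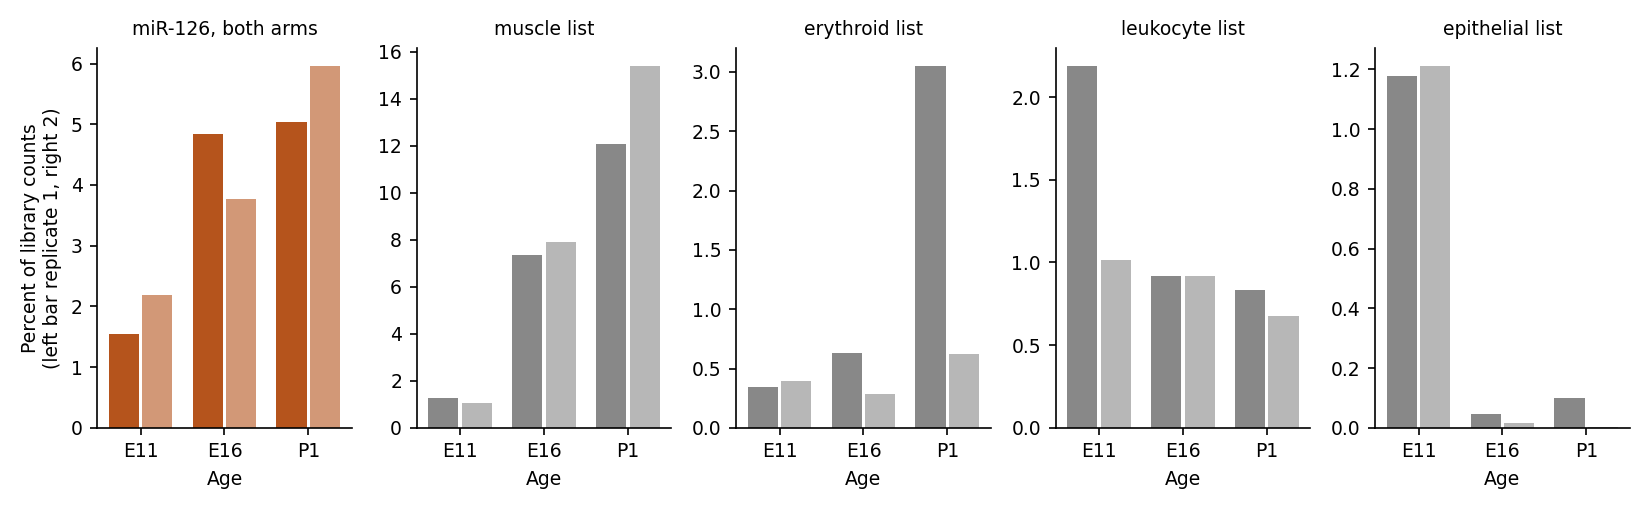
Share of library counts taken by both arms of miR-126 (orange) and by 4 marker lists (grey), with replicate 1 as the left bar and replicate 2 as the right bar of each age; each panel has its own vertical axis starting at 0. miR-126 and muscle shares are highest at P1, erythroid miRNAs stand out in P1 replicate 1 (3.05%), and epithelial miRNAs are at 1.18% and 1.21% at E11.

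The nearest other miRNA gene to MIR126 in the RefSeq annotation was MIR3528, with 2 protein-coding genes between them. miR-3528 had 5 and 16 counts in the E11 libraries, 1 and 0 in the E16 libraries, and 5 and 2 in the P1 libraries. It was called lower at P1 against E11 (edgeR adjusted p = 0.0147), on counts that few. It passed the filter on low counts only through the E11 libraries, where it had 14.6 and 23.1 CPM. The direction of this call was thus largely fixed by the filter, and no contrast with miR-126 is drawn from it.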

How the data were processed

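Per the labels' protocols, RNA was extracted with Trizol and miRNA libraries followed Illumina methods. RNase R treatment and removal of ribosomal RNA are mentioned in a label of each sample, with no word on how they apply to miRNA libraries. The submitters' processing notes list Bowtie, Cufflinks, TopHat, Trim Galore and build galGal4 but give none a step, and no source used here says which program counted miRNAs. The authors' values were read as raw counts, although FPKM is the name that the file headers give them: all are whole numbers, 1 is the most frequent value, and totals differ between samples. Were they rounded FPKM, count tests would not suit them. A miRNA missing from a table was given 0. For 11 pairs of entries the counts were nearly equal in every library, so library totals may hold some reads more than once.

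The main test ran in edgeR 4.0.16 under R 4.3.3 (filterByExpr with minimum count 10 and minimum total 15, leaving 289 entries; TMM; quasi-likelihood F-test on all 6 samples with 1 coefficient per age, 3 residual degrees of freedom, biological coefficient of variation 0.466). P-values were two-sided and adjusted by Benjamini-Hochberg over all entries, and 0.05 was the threshold for writing "rose" or "fell". The SE is the log2 fold change divided by the square root of F. For arm ratios, miRNAs with at least 10 counts over both arms in 2 samples entered a second edgeR fit with a block per sample. Log2 CPM used a prior count of 2. DESeq2 1.42.0 and limma 3.58.1 served as alternatives. Scripts were tested on simulated data with changes larger than those of miR-126 and, outside the arm ratios, less spread than in these data. That test checks the code and does not show which changes could be detected here. Replicates differed by far more than sampling noise (chi-square per degree of freedom 203 to 568) and were kept apart.

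The members, lists and naming rule were chosen with earlier results of these data known. By the rule the text names both arms, the 3 named entries closest to each, abundant list members and the neighbours in arm ratio. The called members of the vessel growth list were added after their values were seen. So were the other named members of the muscle, erythroid, white blood cell and epithelial lists, the pairs of arms compared for their SD and miR-3528. No genome of the files' build was used, so no positions are given.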

Additional observations from a re-analysis of the deposited data

How the results depend on the processing

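With 2 samples per age, calls rest on few libraries, and the shallow E11 libraries limit the precision of scarce miRNAs. The labels do not say that equal replicate numbers mark a shared source, so the main fit did not pair the samples. Deviations from the age means correlated at -0.02 (E11 and E16), 0.33 (E16 and P1) and -0.03 (E11 and P1) over 289 entries. Libraries of equal number thus shared some deviation in E16 and P1, for a reason that was not tested.

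For miR-126-5p at E16 against E11, the replicate block gave a log2 fold change of 1.51 (adjusted p = 0.103) and the fit on only the 4 samples compared gave 1.56 (adjusted p = 0.0633), neither of them called, while fits without 1 library ran from 1.43 to 1.79. For miR-126-3p at P1 against E11 the call was lost with library totals only (1.30), limma on log2(count + 1) (1.34), the replicate block (1.78) and only the 4 samples compared (1.77), and fits without 1 library ran from 1.5 to 2.14. Neither arm changed direction under any alternative run, and no alternative called either arm at P1 against E16 or the arm ratio in any comparison. Since the libraries of the ages mostly do not overlap, a kept direction says little about stability. With library totals only, the log2 of the lowest E16 over the highest E11 CPM of miR-126-3p was -0.10, an alternative chosen after seeing the data.

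The number of entries called at E16 against E11, 19 as reported, was 36 with DESeq2, 46 with no filter, 12 with named entries only, 9 without the muscle list and 0 to 11 without 1 library. At P1 against E16 it was 0 as reported, 1 with DESeq2, 13 with no filter and 0 to 1 without 1 library. At P1 against E11 it was 88 as reported, 30 with the replicate block, 28 with only the 4 samples compared and 10 to 61 without 1 library. With library totals only, 20 were higher and 64 lower in that comparison, against 41 and 47 as reported, and limma gave 23 and 54. Pairs of arms called at P1 against E11 were 8 as reported, 1 with limma, 0 with limma and the replicate block, and 0 to 9 without 1 library. Without 1 library they were 0 to 2 at E16 against E11 and 0 to 3 at P1 against E16. Among the 20 other named miRNAs at P1 against E11, 257 of 356 alternatives kept the direction and the side of the threshold, 93 lost a call, 5 gained one and 1 changed sign: miR-146c-5p, -0.75 as reported, had 0.034 without E11 replicate 1 and -1.25, then called, without E11 replicate 2. The causes were not tested.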
